A study of Bos taurus with 8 samples.

Results

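Respiratory complexes II to V are the protein assemblies of the inner mitochondrial membrane that take electrons from succinate and ubiquinol to oxygen and use the proton gradient to make ATP. Their genes were taken by the gene symbols of the platform annotation: every symbol beginning with SDH, UQCR, COX4, COX5, COX6, COX7, COX8 or ATP5, and CYC1 and CYCS. This gave 47 of the 15216 named genes on the array, with 73 of 43794 gene probes, and the probe with the highest raw intensity stood for each gene. By complex there were 4 genes of complex II, 8 of complex III, cytochrome c, 14 of complex IV and 15 of complex V. The symbols also took in 5 genes that encode assembly or other proteins (SDHAF1, SDHAF2, COX7A2L, DMAC2L and EMC8), which are described apart.

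Bovine embryos were produced in vitro, with oocytes from the ovaries of slaughtered cattle, and cultured in synthetic oviductal fluid with or without buthionine sulfoximine (BSO), an inhibitor of the enzyme that starts glutathione synthesis. BSO was at 0.4 mM from day 3 to day 5 and at 0.01 mM from day 5 to day 7, and controls had no added agent. At 196 h after fertilization blastocysts were taken and pooled by 10. There were 4 such pools of each treatment, compared on 8 dual-colour arrays, of which 4 carried BSO in Cy5 and 4 in Cy3. The arrays were averaged in pairs of opposite dye orientation to 4 replicates, each a log2 ratio of BSO over control. Replicates 1 and 2 lay on a pair of slides and replicates 3 and 4 on another slide. The labels do not say whether pools came from separate cultures, so the spread that p-values rest on is that between pools and may be technical, and a pool mixes the cell types of whole blastocysts, so fewer cells of a type and less RNA per cell cannot be told apart.

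In these complexes, succinate dehydrogenase (complex II) also works in the citric acid cycle, complex III hands electrons to the small carrier cytochrome c, complex IV reduces oxygen, and complex V is the ATP synthase. Complex II is encoded wholly in the nucleus, while complexes III to V combine nuclear-encoded subunits with core subunits or a core subunit made from mitochondrial DNA. In embryos, oxidative phosphorylation is a main source of ATP up to the blastocyst, and the electron transport chain is also a source of superoxide, which glutathione-dependent enzymes help to clear. The mitochondrially encoded subunits were not analysed here. No probe bore the symbol UQCRFS1, the iron-sulfur subunit of complex III, in the platform annotation, so it is missing from the members.

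Of the 47 genes, 45 were brighter than the negative controls on enough arrays to be tested. The 2 others, COX6A2 and COX7A1, known as muscle and heart isoforms, were not well above background: COX6A2 passed the limit in the BSO channel on 1 of 8 arrays and in the control channel on 0, and COX7A1 on 1 array in each. No fold change is given for them. Markers of the labelled stage were set against the same limit. On each array, 29736 to 38089 of the 43794 gene probes passed it in a given channel. Of 20 trophectoderm markers listed, 19 were measured. Among these, 16 were above the negative controls in both channels on all 8 arrays, KRT8, KRT18, IFNT and CDX2 included. EOMES, HAND1 and TEAD4 were not. CDX2 was dim, at a mean log2 intensity of 7.54 against a median of 7.86 over all genes. Of 12 epiblast markers, 10 were above the limit in this way, NANOG and POU5F1 included, but FGF4 and SALL4 were not. Of 10 measured hypoblast markers, 7 were, GATA4 included, but APOA2, FOXA2 and SOX17 were not. So were 6 of 10 measured cumulus and granulosa markers, so passing this limit does not by itself tell cell types apart.

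The genes of complexes II to V did not move as a block. Ratios ran from -0.81 for COX8B to 0.45 for ATP5PB, with a median of -0.052 against 0.0040 over all 13678 genes tested. Of the members, 28 were below 0 and 17 above, and of all genes 6660 were below 0 and 7018 above. With limma, 0 of the 45 passed an adjusted p of 0.05, as did 0 of 36995 probes in all (0%). At a limma unadjusted p under 0.05, 10 were lower, where 14.8% of all genes were, and 3 were higher, where 10.4% of all genes were (25.3% of genes either way). COX6B2 is among the 10, although it passed the filter through the control channel alone, and 9 of the other 44 were lower. The members were brighter than most genes. Among the 41 past a stricter limit of 2 times the negative controls, 9 were lower and 3 higher, against 19.6% and 15.3% of the 6571 genes past that limit. As shares of the members, these are 22.0% lower and 7.32% higher, so the share that was lower stood close to that of the brighter genes. The count of members higher was 5 without replicate 2 and 1 without replicate 3, where 7.44% and 7.48% of all genes were. All 4 replicates had the same sign for 18 of the 45 members, and for 34.8% of all genes. At least a 1.5-fold difference was found for 4 members, all lower (COX8B, SDHA, COX4I1 and COX6A1), and for 2.43% of all genes in either direction. All 4 were past the stricter limit, where 5.04% of genes differed that much.

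**Figure D1:**
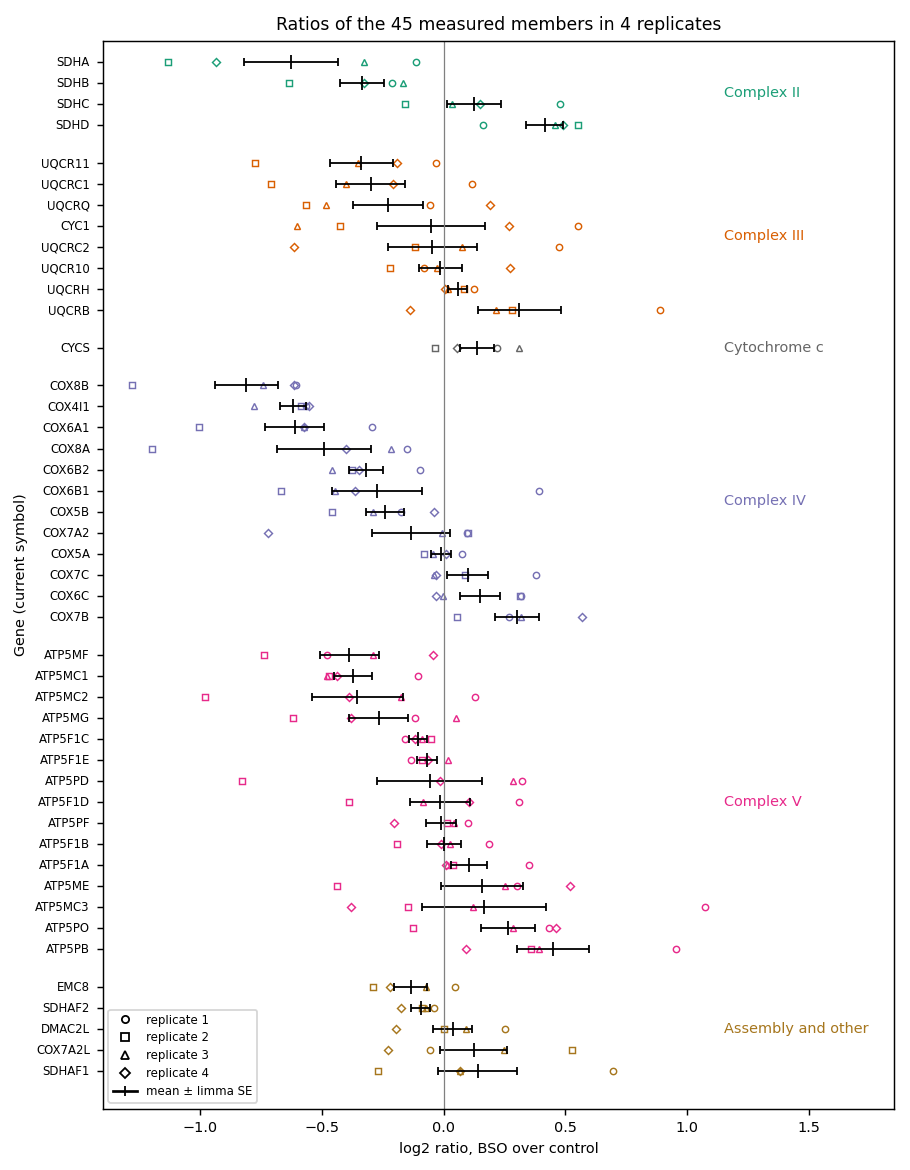
Log2 ratio of BSO over control (horizontal axis) for each of the 45 tested genes, grouped by complex; open symbols are the 4 replicates and the black mark and bar are the mean and the limma SE. The means run from -0.81 for COX8B to 0.45 for ATP5PB, and in most genes of complexes III and V the replicates lie on both sides of 0.

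The replicates differed in where the whole set lay. The median of the 45 genes was 0.12 in replicate 1, -0.22 in replicate 2, -0.029 in replicate 3 and -0.12 in replicate 4, while the median over all genes stayed between -0.0076 and 0.0042 in each. Replicate 1 was thus the highest and replicate 2 the lowest for these genes. The same replicates were highest and lowest for 74 measured mitochondrial ribosome genes, with medians of 0.098, -0.17, -0.10 and -0.019 in replicates 1 to 4. They were so too for 41 genes taken for complex I, at 0.0074, -0.18, -0.049 and -0.031. The cause was not tested. Without replicate 1 the median of the 45 genes was -0.12, without replicate 2 it was -0.020 and without replicate 3 it was -0.086. Complex IV had the lowest median of the 4 complexes, -0.26 over its 12 tested genes, with 9 below 0 and replicate medians of -0.011, -0.42, -0.25 and -0.35. Without COX6B2 it was -0.24 over 11 genes. The medians were -0.11 for the 4 genes of complex II, -0.049 for the 8 of complex III and -0.015 for the 15 of complex V. Differences between complexes were not tested.

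**Figure D2:**
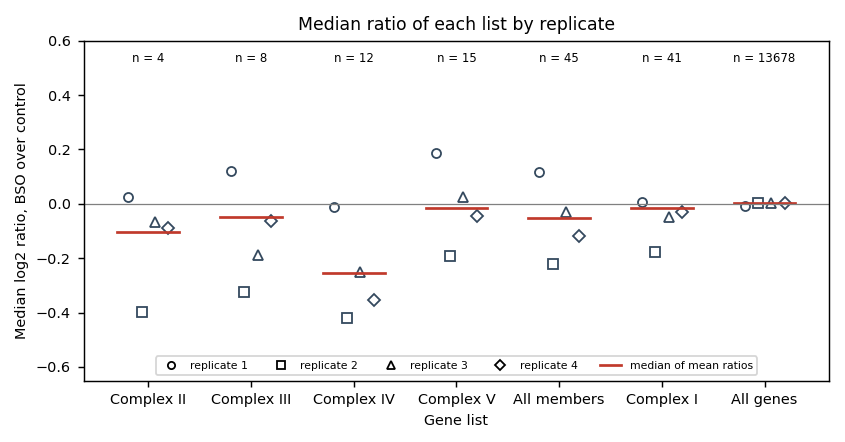
Median log2 ratio of BSO over control (vertical axis) of each list in each of the 4 replicates (open symbols) and the median of the mean ratios (red line), with the number of genes above. For the members, replicate 1 lies at 0.12 and replicate 2 at -0.22, while all genes stay near 0 in every replicate.

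In complex II the subunits had ratios of opposite sign. SDHA, the flavoprotein that oxidizes succinate, was at -0.11, -1.13, -0.33 and -0.93 in replicates 1 to 4. It was below 0 in each, with replicates 2 and 4 far lower than replicates 1 and 3. Its mean was -0.63 ± 0.19 (limma SE, n = 4). That is 1.54-fold lower, and limma gave an adjusted p of 0.164. SDHB, the iron-sulfur subunit that passes the electrons on, was at -0.21, -0.64, -0.17 and -0.33, and it was lower on 8 of 8 arrays. Its mean was -0.34 ± 0.09 with a limma adjusted p of 0.133, and its other probe was at -0.43. SDHC, a membrane anchor, was at 0.12 ± 0.11, with replicate 2 below 0.

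SDHD, the other membrane anchor, had the second highest ratio of the members. Its replicates were 0.16, 0.55, 0.46 and 0.49, all above 0, with replicate 1 the lowest. The mean was 0.41 ± 0.08 (limma SE, n = 4), or 1.33-fold higher, with a limma adjusted p of 0.086. The size depended on the dye. On the arrays with BSO in Cy5 the values were 0.63, 0.86, 0.77 and 0.74, and on those with BSO in Cy3 they were -0.30, 0.24, 0.15 and 0.24. The ranges did not overlap, the means were 0.75 and 0.080, and the dye term had a limma adjusted p of 0.000493. The pair averages cancel an additive dye effect. The other SDHD probe, close to background brightness, was at -0.098.

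In complex III, 0 of 8 genes were at a limma unadjusted p under 0.05 in either direction. UQCR11, a small accessory subunit, was lower in all 4 replicates, at -0.03, -0.77, -0.35 and -0.19, with a mean of -0.34 ± 0.13 (limma SE, n = 4) and a limma adjusted p of 0.225. UQCRC1, a core subunit, was at -0.30 ± 0.14, but its mean was -0.84 with BSO in Cy5 and 0.24 with BSO in Cy3, and its probe was dim. UQCRC2, the other core subunit, was at -0.046 ± 0.182, and the small subunits UQCRQ, UQCR10 and UQCRH were at -0.23, -0.015 and 0.058. UQCRB, which lies near the ubiquinone sites, was at 0.89, 0.28, 0.21 and -0.14. Its mean of 0.31 ± 0.17 leaned on replicate 1. CYC1, the heme-bearing cytochrome c1, was at 0.55, -0.43, -0.60 and 0.27, so that replicates 1 and 4 stood above 0 and replicates 2 and 3 below. Its mean was -0.052 ± 0.221, while its other, dimmer probe was at 0.16 to 0.21 in every replicate.

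Cytochrome c (CYCS), which carries electrons from complex III to complex IV and starts the caspase cascade when it leaves the mitochondrion, was at 0.22, -0.03, 0.31 and 0.06. Its mean was 0.14 ± 0.07 (limma SE, n = 4) with a limma adjusted p of 0.315. Its probe reached 96.0% of the array maximum, where the scanner scale limits ratios.

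Among the subunits of complex IV, COX4I1 had the lowest limma p of the 45 members. COX4I1 is the ubiquitous form of subunit 4, a nuclear-encoded subunit that binds adenine nucleotides and is needed for assembly of the enzyme. Its replicates were -0.56, -0.59, -0.78 and -0.55, and its 8 arrays ran from -0.82 to -0.35, all below 0. The mean was -0.62 ± 0.05 (limma SE, n = 4). That is 1.54-fold lower, and the 95% interval of the log2 ratio was -0.76 to -0.48. It ranked 30 of 13678 genes by p, with a limma unadjusted p of 0.000106 and an adjusted p of 0.0514, so it did not pass. The means were -0.73 with BSO in Cy5 and -0.51 with BSO in Cy3, with a limma adjusted p of 0.030 for the dye term, and -0.57 over replicates 1 and 2 and -0.66 over replicates 3 and 4. In the authors' deposited log2 values, averaged and fitted in the same way, it was at -0.61 with a limma adjusted p of 0.0484. It also passed without background correction at 0.0446, with array weights at 0.0445, with no filter on dim probes at 0.0483 and with the stricter filter at 0.0449. With the 8 arrays fitted with a dye term and the replicate block it passed at 0.00196. It did not pass with median centring at 0.0506, with the mean of all probes of each gene at 0.072, with the slide set as a block at 0.076, or with any replicate left out at 0.104 to 0.197. COX4I1 was measured by 1 probe. EMC8, which the platform annotation calls COX4NB, is its neighbour, and in RefSeq genes of the ARS-UCD2.0 assembly the annotated spans of the pair overlap. EMC8 is a subunit of the endoplasmic reticulum membrane complex and no part of complex IV, and it was at -0.13 ± 0.07. Whether either probe lies in the shared span was not tested.

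COX6A1, a subunit with a regulatory role whose other isoform is COX6A2, was at -0.29, -1.01, -0.57 and -0.57. All 8 arrays were below 0. Its mean was -0.61 ± 0.12 (limma SE, n = 4). That is 1.53-fold lower, and limma gave an adjusted p of 0.093. It had 3 probes, and the others gave the same picture, at -0.69 and -0.52, with adjusted p of 0.086 and 0.070.

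COX8B had the lowest ratio of the members. It is known in cattle as the heart and muscle isoform of subunit 8. The replicates were -0.61, -1.28, -0.74 and -0.61, with a mean of -0.81 ± 0.13 (limma SE, n = 4), or 1.75-fold lower, and a limma adjusted p of 0.074. With BSO in Cy5 the arrays ran from -1.64 to -1.10. With BSO in Cy3 they were at -0.11, -0.92, -0.02 and -0.08, so the 2 orientations did not overlap and only replicate 2 was clearly below 0 in both. The dye term had a limma adjusted p of 0.000551. COX8A, the ubiquitous isoform, was at -0.15, -1.20, -0.21 and -0.40. Replicate 2 lay far below the rest, and the mean was -0.49 ± 0.19 with a limma adjusted p of 0.232. The arrays with BSO in Cy3 gave a mean of -0.22 and those with BSO in Cy5 -0.76.

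**Figure D3:**
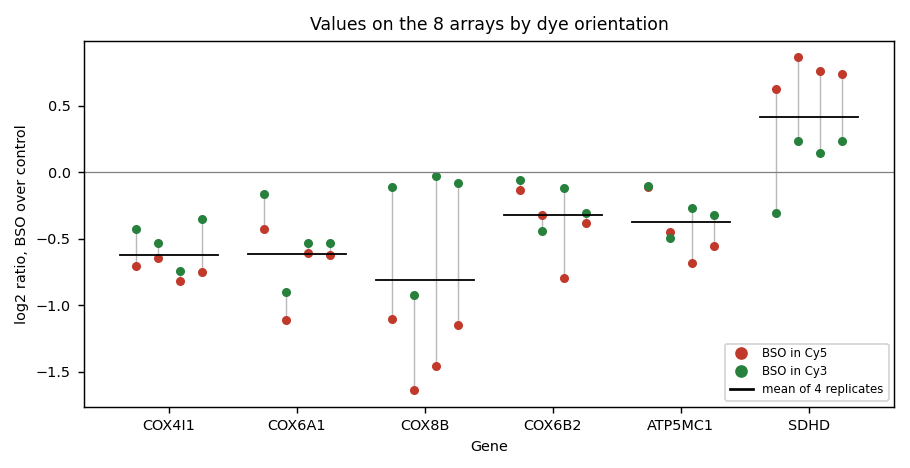
Log2 ratio of BSO over control (vertical axis) on each of the 8 arrays for the 6 genes with 4 replicates of 1 sign and a limma unadjusted p under 0.01; grey lines join the arrays of a replicate, in order 1 to 4, and black lines are means. All arrays of COX4I1 and COX6A1 lie below 0, with means by orientation of -0.73 and -0.51 for COX4I1, while the orientations of COX8B and of SDHD do not overlap. COX6B2 is shown as a description only, because it passed the filter through the control channel alone.

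COX6B2 is known in humans as the testis isoform of subunit 6B. It was at -0.10, -0.38, -0.46 and -0.35, with a mean of -0.32. It was dim: its spot passed the negative controls on 3 of 8 arrays in the BSO channel and on 7 in the control channel. It was thus kept through the channel where it was high, so these values are given as a description with no test. COX6B1, the ubiquitous isoform, was at 0.39, -0.67, -0.45 and -0.36, with a mean of -0.27 ± 0.18 and replicate 1 on the other side of 0. Its means by dye were -0.56 with BSO in Cy5 and 0.012 with BSO in Cy3. The dye term had a limma adjusted p of 0.018.

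COX5A and COX5B are subunits found in every tissue, and both had very bright probes. COX5B was below 0 in all 4 replicates, at -0.17, -0.46, -0.29 and -0.04, with a mean of -0.24 ± 0.08 (limma SE, n = 4) and a limma adjusted p of 0.173. Its means by dye were -0.084 with BSO in Cy5 and -0.40 with BSO in Cy3, with a limma adjusted p of 0.030 for the dye term. The probe of COX5B reached 93.9% of the array maximum. COX5A was at -0.0100 ± 0.0418, with a 95% interval of -0.12 to 0.099. Its brightest probe reached 100% of the array maximum, and its 3 dimmer probes disagreed, at -0.31, 0.25 and -0.14.

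The small subunits of complex IV lay on both sides of 0. COX7B was at 0.27, 0.05, 0.32 and 0.57, all above 0. Its mean was 0.30 ± 0.09 (limma SE, n = 4) with a limma adjusted p of 0.154, and the means by dye were 0.55 with BSO in Cy5 and 0.055 with BSO in Cy3. COX7C and COX6C were at 0.099 and 0.15. COX7A2, the ubiquitous isoform beside COX7A1, was at 0.10, 0.10, -0.01 and -0.72, so its mean of -0.13 came from replicate 4, and its other probe was at -0.32.

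In complex V, 3 of 15 genes were lower and 1 was higher at a limma unadjusted p under 0.05. The catalytic head did not differ detectably. ATP5F1B, the catalytic beta subunit, was at 0.19, -0.19, 0.03 and -0.01, with a mean of 0.0027 ± 0.0693 (limma SE, n = 4) and a 95% interval of -0.18 to 0.18. ATP5F1A, the alpha subunit, was at 0.35, 0.04, 0.01 and 0.01, with a mean of 0.10 ± 0.07. Their probes reached 93.8% and 95.1% of the array maximum, where the scanner scale limits ratios. Of the rotor, ATP5F1C, the gamma subunit, was at -0.16, -0.05, -0.09 and -0.12. Its mean was small, at -0.10 ± 0.04, with a limma adjusted p of 0.195. Its 2 other probes were also below 0 in all replicates, at -0.55 and -0.20, the former with an adjusted p of 0.063. ATP5F1D and ATP5F1E, the delta and epsilon subunits, were at -0.015 and -0.067.

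The c subunit, which forms the proton-driven ring, is made from 3 genes whose mature proteins are the same. ATP5MC1 was at -0.11, -0.47, -0.48 and -0.44, and it was below 0 on 8 of 8 arrays. Its mean was -0.37 ± 0.08 (limma SE, n = 4). That is 1.29-fold lower, and limma gave an adjusted p of 0.098. Its probe reached 92.2% of the array maximum, and its 2 dimmer probes were lower still, at -0.61 and -0.66, with adjusted p of 0.0514 and 0.057. ATP5MC2 was at 0.13, -0.98, -0.17 and -0.39, with a mean of -0.35 ± 0.19 that leaned on replicate 2. ATP5MC3 was at 1.07, -0.14, 0.12 and -0.38, and its mean of 0.17 ± 0.25 came from replicate 1, without which it was -0.14.

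Of the other membrane subunits of complex V, ATP5MF (subunit f) was at -0.48, -0.74, -0.29 and -0.04. Its mean was -0.39 ± 0.12 (limma SE, n = 4) with a limma adjusted p of 0.165, but it was -0.84 with BSO in Cy5 and 0.070 with BSO in Cy3, and 1 of its 2 other probes was at 0.081 while the other was at -0.33. ATP5MG (subunit g) was at -0.27 ± 0.12 and ATP5ME (subunit e) at 0.16 ± 0.17. In the peripheral stalk, which holds the head still, ATP5PB had the highest ratio of all members. It was at 0.96, 0.36, 0.39 and 0.09, with a mean of 0.45 ± 0.15 and a limma adjusted p of 0.178, or 1.37-fold higher. Its other probe was at -0.088, so its probes disagreed in sign. ATP5PO, which joins the stalk to the head, was at 0.43, -0.12, 0.28 and 0.46, with a mean of 0.26 ± 0.11. ATP5PF and ATP5PD were at -0.012 and -0.058.

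The 5 genes that the symbols took in but that are no subunits were at a limma unadjusted p of 0.05 or more on their brightest probes. SDHAF2, which helps to attach the flavin to SDHA, was at -0.094 ± 0.039 (limma SE, n = 4). SDHAF1, which serves the iron-sulfur subunit, was at 0.14 ± 0.16, with replicate 1 at 0.69 and replicate 2 at -0.27. COX7A2L, which joins complexes III and IV in supercomplexes, was at 0.12 ± 0.14, while its dimmest probe was below 0 in all 4 replicates, at -0.32 with a limma unadjusted p of 0.0045. DMAC2L, named ATP5S on the platform, was at 0.037 ± 0.081, and another of its probes was above 0 in all 4 replicates, at 0.22 with a limma unadjusted p of 0.026.

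Several probes for a gene did not always agree. Of the 45 genes, 16 had another probe past the filter, 25 such probes in all, and 9 of these, from 9 genes, were of the opposite sign or over 0.3 away from the brightest. COX6A1, SDHB, ATP5MC1 and ATP5F1C were among those below 0 on every probe, and SDHD and ATP5PB, the genes with the highest ratios, were above 0 on the brightest probe only. Of the 45 brightest probes, 8 reached 80% of the array maximum or more, and for 3 of these genes (ATP5MC1, ATP5F1C and COX5A) dimmer probes existed. Those of ATP5MC1 and ATP5F1C had lower ratios than the brightest probe, and those of COX5A lay on both sides of it. Some of these small subunits also have processed gene copies, from which a probe may not tell them apart.

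**Figure D4:**
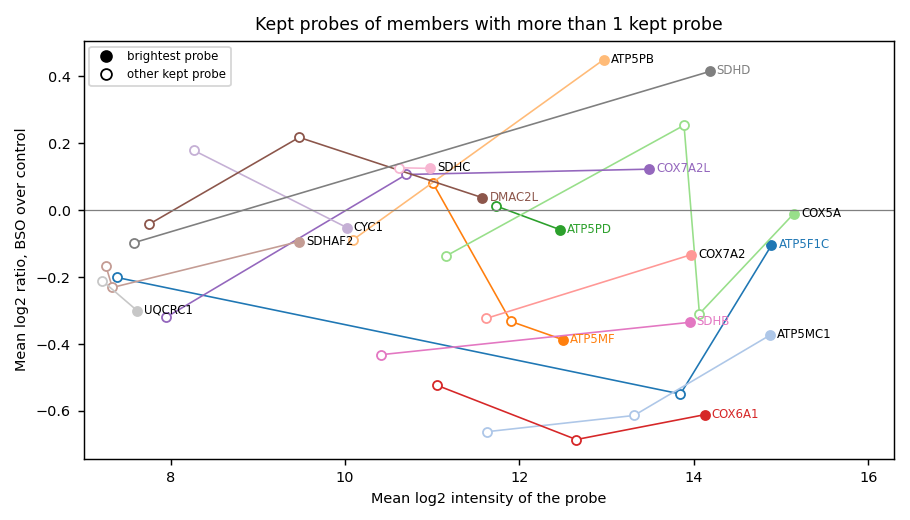
Mean log2 ratio of BSO over control (vertical axis) against mean log2 intensity (horizontal axis) for each probe past the filter of the 16 genes with more than 1 such probe; filled points are the brightest probe of a gene and lines join its probes. The probes of COX6A1 lie together between -0.69 and -0.52, those of ATP5MC1 and ATP5F1C are lower where dimmer than the brightest, and those of SDHD and ATP5PB fall on both sides of 0.

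Dye and slide were the technical factors that the labels gave. A dye term passed a limma adjusted p of 0.05 for 15 of the 45 genes, and for 38.5% of all genes. The BSO effect differed between the slides of replicates 1 and 2 and that of replicates 3 and 4 for 0 of the 45 genes, and for 0% of all genes, at that threshold with limma. At an unadjusted p under 0.05 this difference was found for 2 of the 45 genes (COX6C and ATP5MF) and for 7.88% of all genes. When the 8 arrays were fitted with a dye term, and with each matched pair treated as a replicate block, 6 genes fell and 2 rose at a limma adjusted p under 0.05, against 7.83% of all genes lower, 5.24% higher and 13.1% either way. These were COX4I1, COX8B, COX6A1, SDHB, ATP5MC1 and SDHA, with adjusted p of 0.00196 to 0.031, and SDHD and COX7B, at 0.014 and 0.044. That fit treats the arrays as correlated at 0.54 within pairs.

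The genes that build the complexes or express mitochondrial DNA were tested in the same fit, and 0 of them passed an adjusted p of 0.05 with limma. Of 28 measured assembly genes, 6 were lower and 5 were higher at that level without adjustment (0.05), with a median of -0.028. Over all genes, 14.8% were lower and 10.4% higher, and over the brighter genes 19.6% and 15.3%, against which the counts of each list here are to be read. SURF1, an assembly factor of complex IV, was at -0.76 ± 0.13 (limma SE, n = 4). TTC19 and BCS1L, which serve complex III, were at -0.43 ± 0.05 and -0.33 ± 0.07, and ATPAF1, which serves complex V, at 0.20 ± 0.05. HIGD1A, a small protein that binds complex IV, was at 0.19 ± 0.05. Of 18 measured genes of mitochondrial DNA expression and biogenesis, 4 were lower and 5 higher, with a median of 0.084. The co-activator PPRC1 was at -0.52 ± 0.04 with a limma adjusted p of 0.0514 and was lower in all 4 replicates, while POLG2, an accessory subunit of the mitochondrial DNA polymerase, was at 0.39 ± 0.04 with an adjusted p of 0.057. TFAM, which packages mitochondrial DNA and starts its transcription, and GABPA, which binds promoters of respiratory genes, were at 0.34 ± 0.06 and 0.28 ± 0.07. POLRMT, of the same list, went the other way, at -0.32 ± 0.07, and was lower in all 4 replicates. Among genes taken for complex I by the prefixes NDUFA, NDUFB, NDUFC, NDUFS and NDUFV, 12 of 41 were lower and 7 higher, with a median of -0.015. The prefixes also took in the assembly factors NDUFAF1, NDUFAF3 and NDUFAF4, as well as NDUFA4L2. NDUFA4 is counted there and again among the late-named genes below. Of 74 measured mitochondrial ribosome genes, 17 were lower and 10 higher, with a median of -0.034. Of the late-named subunits and the inhibitor ATP5IF1, 4 genes were measured and lay between -0.099 and 0.19, with 0 at an unadjusted p under 0.05.

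Markers of cell types were read in the same way, beside shares of 14.8% of all genes lower and 10.4% of them higher. With limma 0 markers had an adjusted p below 0.05. Of 19 measured trophectoderm markers, 8 had a lower and 1 a higher ratio at a limma unadjusted p under 0.05. Their median was -0.28, with replicate medians of -0.11, -0.55, -0.096 and -0.19. Replicate 2 was the lowest, as it was for the respiratory, complex I and mitochondrial ribosome genes. Replicate 1 was not the highest here, unlike for those genes. Of 12 epiblast markers 4 were lower and 2 higher, with a median of -0.032. Of 10 hypoblast markers 4 were lower and 1 higher, with a median of -0.16, and of 10 cumulus and granulosa markers 1 was lower and 0 higher, with a median of 0.038. The part of these values in the ratios of the respiratory genes was not tested.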

How the data were processed

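Per the file headers, the authors' scanner output gave raw mean intensity of each spot and its local background for Cy3 and Cy5, with nothing subtracted. A deposited table gave log2 ratios, made with limma per the submitters' processing notes; set against the scanner values they run as BSO over control (correlations 0.919 to 0.991 over kept probes, array medians 0.0011 to 0.013). The authors' scanner and normalization settings are not given in the sources used here.

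Intensities were corrected with normexp (offset 50) and loess in limma 3.58.1 (R 4.3.3). Control spots had weight 0. Probes brighter than the 95th percentile of 153 negative controls on at least 4 arrays in either channel were kept, 36995 of 43794. Symbols came from the platform annotation, where 21790 probes had 1 symbol, 0 had several and 22004 had none. They were updated through a RefSeq gene table (20025 current, 1524 updated, 241 not found; 19 members updated). The files name no genome build, so no coordinates are given, and the RefSeq table (ARS-UCD2.0) served only for names and neighbours.

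The labels do not say which arrays share pools. Arrays of opposite dye were matched by order within slides. Deviations from the orientation means correlated at 0.657 to 0.843 within pairs and at -0.049 or below between pairs, where deviations from a mean are negative by construction on average. Pair means were tested against 0 with limma, adjusted by Benjamini-Hochberg over all kept probes. The fit was tested on simulated data. Array number limits the precision.

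The members and lists were chosen with earlier results of these data known. Genes given in full had 4 replicates of 1 sign with an unadjusted p under 0.01, or were among the 6 highest or 6 lowest, or were core subunits. Other list genes named met the first condition, at most 4 a list. Beyond these, HIGD1A and POLRMT are named because they met the condition too.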

Additional observations from a re-analysis of the deposited data

Results flagged for a closer look

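Of the 45 genes, 4 had a replicate far from the other 3 by Dixon's test, and chance alone gives this in about 1 of 20 groups. The share over all genes is not given here, so the count is not read as a trait of these genes. ATP5F1A was at 0.35 in replicate 1 and between 0.012 and 0.040 in the others. ATP5MC1 was at -0.11 in replicate 1 and between -0.48 and -0.44 in the others. COX7A2 was at -0.72 in replicate 4 and between -0.0070 and 0.10 in the others. COX4I1 was at -0.78 in replicate 3 and between -0.59 and -0.55 in the others, and its mean was -0.57 without replicate 3.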

How the results depend on the processing

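The number of genes at a limma adjusted p under 0.05 was 0 in the reported fit and with each replicate left out, where 0% of all genes passed. Both were also 0 with median centring, with quantile normalization of intensities between arrays and with the mean of all probes of each gene. They were 0 too with the slide set as a block, with replicates 1 and 2 only, with replicates 3 and 4 only and with BSO in Cy3 only. In the remaining settings the number is given with the share of all genes tested there. It was 1 without background correction (1.35%), in the deposited log2 values (0.629%), with no filter on dim probes (0.243%) and with array weights (1.07%). With the stricter filter it was 2 (1.98%), and with BSO in Cy5 only it was 10 (21.3%). With the pair as a replicate block it was 8, without a dye term (12.0%) or with one (13.1%). Without the dye term that fit put the correlation within pairs at 0.015, so it treated the 8 arrays nearly as independent. The count lower at a limma unadjusted p under 0.05 was 10 as reported, with COX6B2 among them, which passed the filter through the control channel alone. This count was 16 in the replicate block with a dye term (17.2% of all genes) and with BSO in Cy5 only (21.6% of all genes). With BSO in Cy3 only it was 8 (12.9% of all genes). With replicates 1 and 2 only it was 3 (10.6% of all genes). It ran from 7 to 12 with a replicate left out (10.8% to 13.5% of all genes). The count higher, 3 as reported, was 6 with median centring (12.7% of all genes) and 5 with the replicate block without a dye term (13.7%). With replicates 1 and 2 only it was 1 (5.95%), and it ran from 1 to 5 with a replicate left out (7.44% to 10.9%). The median ran from -0.12 to -0.020 with a replicate left out and was 0.0085 with BSO in Cy3 only. With probes near the array maximum replaced by dimmer ones, a choice made after seeing the data, 40 genes gave 10 lower and 3 higher. The share over the 13539 genes with a probe below that limit is not given here, so these counts are a description only.

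Of 22 genes given in full, 16 kept their sign in every setting they had a value in, which was 19 settings, or 18 for COX6B2, which the stricter filter left out. COX6B2 passed the filter through the control channel alone, so its steady sign is a description only. COX5A was at 0.021 without background correction, 0.015 with median centring, 0.0039 in the deposited values, 0.0026 with BSO in Cy3 only, and with a replicate left out it ran from -0.038 to 0.014. CYC1 was at 0.064 as the mean of its probes, -0.25 to 0.13 with a replicate left out, 0.063 with replicates 1 and 2 only and 0.083 with BSO in Cy3 only. ATP5MC3 was at -0.14 to 0.35 with a replicate left out and -0.13 with replicates 3 and 4 only. ATP5F1B was at -0.059 to 0.067 with a replicate left out, -0.0013 with replicates 1 and 2 only and -0.083 with BSO in Cy3 only. ATP5MF and UQCRC1 were at 0.070 and 0.24 with BSO in Cy3 only. The causes were not tested. COX4I1 ran from -0.73 to -0.51, with limma adjusted p of 0.00196 to 0.311. Ratios of dim probes and of probes near the array maximum are the least certain.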
